A study of Homo sapiens with 6 samples.

Results

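Expression of 9 genes of non-homologous end joining was followed in MDA-MB-231 cells, a human basal-like breast adenocarcinoma line with mutant p53, before and after ionising radiation. The genes are PRKDC, XRCC5, XRCC6, XRCC4, LIG4, NHEJ1, DCLRE1C, TP53BP1 and RIF1. They were chosen by name for their role in the pathway, with earlier results of these data known. All 9 were found among the 58735 genes of the expression table. RNA was collected from 3 control samples at 0 Gy and from 3 samples 24 h after a dose of 10 Gy from a caesium source. The labels give the genotype of all 6 as WT and their names as SCR, and the study's methods use shSCR for cells of this line that carry a non-targeting short hairpin RNA, so both groups share that background. All cells are of a single line, and nothing says whether the replicates came from separate cultures, so p-values measure only the spread between these samples, which may be technical.

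Non-homologous end joining rejoins the ends of a broken DNA double strand without a template. The Ku heterodimer slides onto each end and recruits the kinase DNA-PKcs, ends that cannot be joined are trimmed by nucleases such as Artemis, and DNA ligase 4 seals the break with XRCC4 and XLF. Upstream of this, 53BP1 and its effector RIF1 shield ends from resection and so favour joining over homologous recombination, and the pathway repairs most breaks that radiation makes in cycling human cells.

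The core genes were expressed at very different levels, and the differences after 10 Gy were small and not in a single direction. XRCC5 fell by 16.4%, LIG4 fell by 11.4% and XRCC6 fell by 10.3%, and no member rose by the test used. That test was limma across all genes whose mean level reached 1 FPKM, 12128 in number, and a gene was called at an adjusted p under 0.05. FPKM counts the fragments on a gene relative to its exon length and to a depth set for each library. Of the 8 members tested, 3 were called lower, against 23.7% of all genes tested, and 0 were called higher, against 11.9% of all genes. At an unadjusted p under 0.05 PRKDC and TP53BP1 were also past the threshold, both higher. With limma voom on the recovered reads and with TPM scaling, both of these were called higher and XRCC6 and LIG4 were not called, so XRCC5 was the member called lower in all 3 fits. Median-of-ratios and upper-quartile scaling kept the 3 calls of the deposited FPKM and added none. Of the 12128 genes, voom called 2795 higher and 1935 lower. In the fit of the deposited FPKM, none of the 8 members was called with a change of at least 1.3-fold, against 5.77% of all genes. The 3 libraries of one dose lay apart from the 3 of the other for 6 members, 4 of them lower and 2 higher after 10 Gy, while 51.9% of all genes tested had groups that did not overlap. The median log2 difference of the 8 members was -0.066, and that of all genes was -0.039. In bulk RNA, a change in the number of cells of one kind and a change in RNA per cell cannot be told apart.

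Each library held between 15643641 and 28861781 reads assigned to genes, as recovered from the deposited values. Here and below, a recovered read means a fragment as FPKM counts it. Across genes, the correlation between libraries was 0.992 or above within a dose and 0.989 or below between doses. Markers of the line were present, with a summed level of VIM, CD44, EGFR and AXL of 665 to 671 FPKM in controls and 528 to 542 FPKM after 10 Gy. Of genes that the line should lack, PGR was listed at 0 in every library, ESR1 and CDH1 stayed under 1 FPKM, and GATA3 was near 3 FPKM at both doses. Lymphocyte markers summed to at most 0.0071 FPKM, with 3 of 4 at 0 in all libraries. Fibroblast markers summed to 2.98 to 3.12 FPKM in controls and 4.08 to 4.39 FPKM after 10 Gy, nearly all of it COL1A1.

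**Figure D1:**
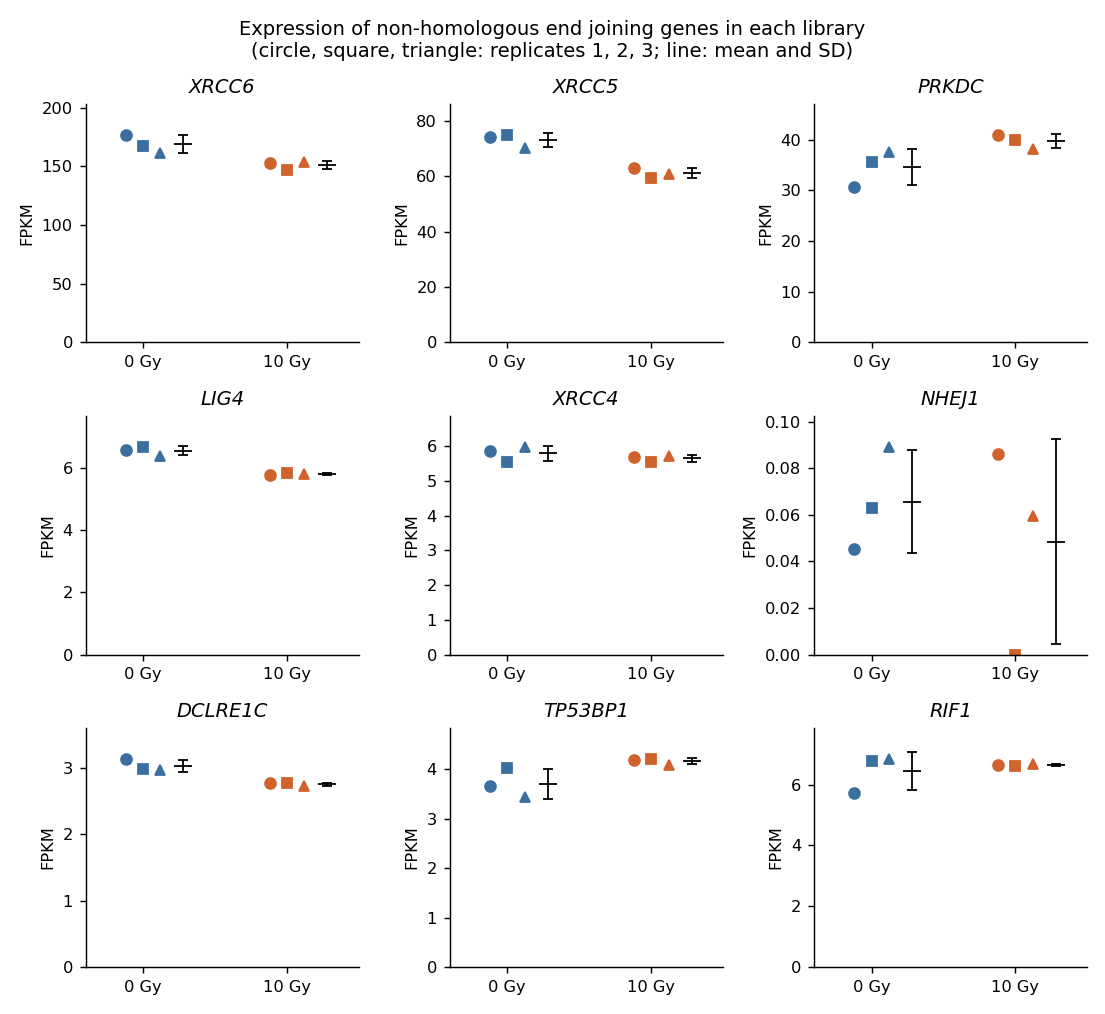
Level of each of the 9 members in FPKM (vertical axis, from 0, with its own range in each panel) in the 3 libraries at 0 Gy and the 3 at 10 Gy, with the mean and SD as a line beside each group. XRCC6, XRCC5, LIG4 and DCLRE1C lie lower in all 3 irradiated libraries than in any control, PRKDC and TP53BP1 lie higher, and XRCC4, NHEJ1 and RIF1 overlap.

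In control cells, XRCC6 had the highest level at 169 ± 7.74 FPKM (SD, n = 3) and ranked 187 by mean level among the genes tested. XRCC5 followed at 73.2 ± 2.45 FPKM and PRKDC at 34.7 ± 3.54 FPKM (SD, n = 3 each). XRCC6 was thus 2.31 times XRCC5, and XRCC5 was 2.11 times PRKDC, per length of exon. These 3 genes stood apart from the other members, since PRKDC was 5.30 times LIG4, the next in order. LIG4 at 6.54 ± 0.144 FPKM, RIF1 at 6.45 ± 0.615 FPKM and XRCC4 at 5.79 ± 0.2202 FPKM (SD, n = 3 each) came next. Every LIG4 control lay above every XRCC4 control, and RIF1 could not be placed, because its control range overlapped those of both. TP53BP1 followed at 3.71 ± 0.298 FPKM and DCLRE1C at 3.03 ± 0.0897 FPKM (SD, n = 3 each), with ranges that did not overlap. NHEJ1 was under 0.1 FPKM in every library. Summed over the 9 members, the level was 295 to 307 FPKM in controls and 272 to 282 FPKM after 10 Gy, and its share of all FPKM stayed between 0.109% and 0.114% in the 6 libraries.

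XRCC6 (ENSG00000196419, chr22:41621119-41664048 on GRCh38, plus strand) encodes Ku70, a subunit of the clamp that first binds a broken end. Its level was 177, 168 and 162 FPKM in the controls and 153, 147 and 154 FPKM after 10 Gy. All irradiated libraries were lower than all controls, and the mean fell by 10.3%. The log2 difference was -0.16 ± 0.0424 (SE, n = 3 per group, limma adjusted p = 0.0271). The call was lost when the values were rescaled to TPM (-0.028, adjusted p = 0.524) and when the recovered reads were fitted with limma voom (-0.081, adjusted p = 0.0715). It was also lost with no filter on low values (adjusted p = 0.0900) and without any 1 of the 3 irradiated libraries or control 2. The 5 processed pseudogenes named after XRCC6 held at most 4 reads in any library, so few reads were assigned to these copies.

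XRCC5 (ENSG00000079246, chr2:216107464-216206303, plus strand) encodes Ku80, the partner whose tail recruits DNA-PKcs. Controls held 74.1, 75.0 and 70.4 FPKM and irradiated libraries 63.2, 59.4 and 60.8 FPKM. The groups were well apart, and the mean fell by 16.4%, from 73.2 ± 2.45 to 61.2 ± 1.90 FPKM (SD, n = 3 each). Of all members XRCC5 had the smallest p, with a log2 difference of -0.26 ± 0.0380 (SE, limma adjusted p = 0.00311). It was called lower under each of the 18 alternatives tried, where the log2 difference ran from -0.28 to -0.13 and the adjusted p from 0.000579 to 0.0339.

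Because both Ku genes fell, the ratio of XRCC5 to XRCC6 within each library was compared, in which the scaling between libraries cancels. The ratio was 0.419, 0.447 and 0.436 in controls and 0.414, 0.404 and 0.395 after 10 Gy. It was lower in every irradiated library, but the closest libraries differed little, and the log2 difference of -0.10 had an exact two-sided permutation p of 0.1, which is the smallest that 3 against 3 libraries allow (0.15 after adjustment over the 3 ratios compared).

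PRKDC (ENSG00000253729, chr8:47773108-47960183, minus strand) encodes DNA-PKcs, the kinase that Ku brings to the break. Its level was 30.7, 35.6 and 37.6 FPKM in controls and 41.0, 39.9 and 38.2 FPKM after 10 Gy. Every irradiated library was higher than every control, although control 3 and irradiated library 3 were almost equal and control 1 was low. The ratio of the means was 1.14, and the log2 difference of 0.19 ± 0.0711 (SE, n = 3 per group) did not pass the threshold over all genes (limma adjusted p = 0.0711). It did pass in 5 of the 18 alternatives, among them TPM scaling (0.32, adjusted p = 0.0233) and voom on reads (0.28, adjusted p = 0.00158). Without control 1 the log2 difference was 0.11, and the adjusted p over all the fits ran from 0.00158 to 0.207.

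PRKDC and the Ku genes thus lay on opposite sides of 0. Ratios of PRKDC to each Ku gene were added after these values had been seen and are given as a description. PRKDC to XRCC5 was 0.415, 0.475 and 0.535 in controls and 0.648, 0.671 and 0.627 after 10 Gy, a log2 difference of 0.46. PRKDC to XRCC6 was 0.174, 0.212 and 0.233 in controls and 0.268, 0.271 and 0.248 after 10 Gy, a log2 difference of 0.36. Both ratios were higher in all irradiated libraries than in any control, and with each library left out in turn the differences ran from 0.36 to 0.55 for XRCC5 and from 0.24 to 0.45 for XRCC6.

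**Figure D2:**
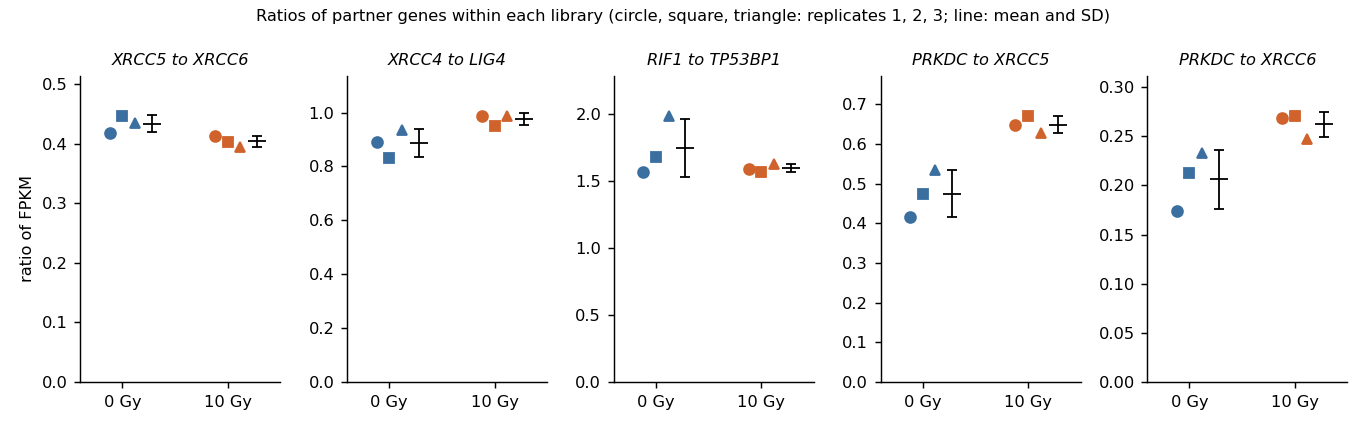
Ratio of FPKM of 5 pairs of members within each library (vertical axis, no unit, from 0 in each panel) at 0 and 10 Gy, with the mean and SD as a line beside each group. The ratios of PRKDC to XRCC5 (means 0.475 and 0.649) and to XRCC6 (means 0.206 and 0.262) lie higher in all irradiated libraries, and that of RIF1 to TP53BP1 overlaps.

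DCLRE1C (ENSG00000152457, chr10:14897359-14954432, minus strand) encodes Artemis, the nuclease that opens hairpins and trims ends once DNA-PKcs has activated it. It held 3.14, 2.98 and 2.98 FPKM in controls and 2.78, 2.77 and 2.73 FPKM after 10 Gy. The irradiated libraries lay below the controls and close together. The ratio of the means was 0.910, and the log2 difference of -0.10 ± 0.0466 (SE, n = 3 per group) was not called (limma adjusted p = 0.131). Each value rested on 290 to 525 reads, and the 95% interval of the difference was -0.21 to 0.0084.

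In the ligation complex, LIG4 (ENSG00000174405, chr13:108207439-108218368, minus strand), the ligase that seals the break, held 6.57, 6.66 and 6.38 FPKM in controls and 5.76, 5.82 and 5.79 FPKM after 10 Gy. The irradiated values were nearly identical and all lower than the controls, and the mean fell by 11.4%. The log2 difference was -0.15 ± 0.0363 (SE, limma adjusted p = 0.0175). Under TPM scaling it was -0.045 (adjusted p = 0.452), with voom it was -0.099 (adjusted p = 0.196), and the call was also lost without any 1 irradiated library.

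XRCC4 (ENSG00000152422, chr5:83077498-83353787, plus strand), the scaffold that stabilises LIG4, held 5.85, 5.54 and 5.97 FPKM in controls and 5.69, 5.53 and 5.71 FPKM after 10 Gy. The groups overlapped, and the log2 difference of -0.031 had a 95% interval of -0.13 to 0.066 (limma adjusted p = 0.589). Its sign turned with the scaling, to 0.088 under TPM and 0.035 with voom. The ratio of XRCC4 to LIG4 was 0.890, 0.832 and 0.936 in controls and 0.988, 0.9499 and 0.987 after 10 Gy. All 3 irradiated libraries were higher, with a log2 difference of 0.14 and an exact two-sided permutation p of 0.1 (adjusted 0.15, again the smallest possible unadjusted value).

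NHEJ1 (ENSG00000187736, chr2:219075317-219160865, minus strand) encodes XLF, which bridges the ends held by XRCC4 and LIG4. It was listed at 0.045, 0.063 and 0.089 FPKM in controls and at 0.086, 0 and 0.059 FPKM after 10 Gy, from 3, 3, 6, 8, 0 and 4 reads. These values overlapped and were too low for the filter, so NHEJ1 is the member that was not tested and no fold is given. In the annotation that the table follows, GENCODE 29, 2034 of the 3109 exonic bases of NHEJ1 (65.4%) are also exons of another gene on the same strand, AC068946.1 (ENSG00000280537). The coding sequence shows the same: the first 826 of its 948 bases (87.1%) occur as an unbroken run in a transcript of AC068946.1. The opening 90 bases of that run, from the start codon of transcript ENST00000409720.5, are shown because a read from them belongs to both genes.
NHEJ1 coding bases 1 to 90: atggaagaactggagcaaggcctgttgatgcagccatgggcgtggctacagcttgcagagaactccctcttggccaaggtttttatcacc
AC068946.1 itself held between 0 and 10 reads per library, so neither gene of the pair carried the reads. How the counting program treated reads in shared exons is not given in the sources used here, and the part of exon sharing in this low value was not tested.

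A wider look at 63 break repair genes, with a limit of 50% chosen after the values had been seen, placed NHEJ1 among 4 genes that share most of their exonic bases with another gene on the same strand. The others were RAD50 (79.7%), the coiled-coil subunit of the break sensor, TEN1 (75.4%), a telomere capping subunit, and RAD54B (59.1%), a DNA translocase of homologous recombination. Of these 4 genes 3 had a mean under 1 FPKM, the highest of them 0.577 FPKM, and RAD54B was the exception at 1.17 FPKM. Of the other 59 genes 4 had a mean under 1 FPKM, namely APLF, DNTT, SHLD1 and RAD51B. The partner of RAD50 with the most shared bases, AC116366.3, held 0 to 2 reads. That of RAD54B, FSBP, also held 0 to 2 reads. In contrast, that of TEN1, TEN1-CDK3, held 16 to 52 reads per library, while TEN1 itself held 0 to 3. The part of exon sharing in these values was not tested, and the level of NHEJ1 in these cells is uncertain. The other 8 members shared no exonic base with a gene on the same strand.

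**Figure D3:**
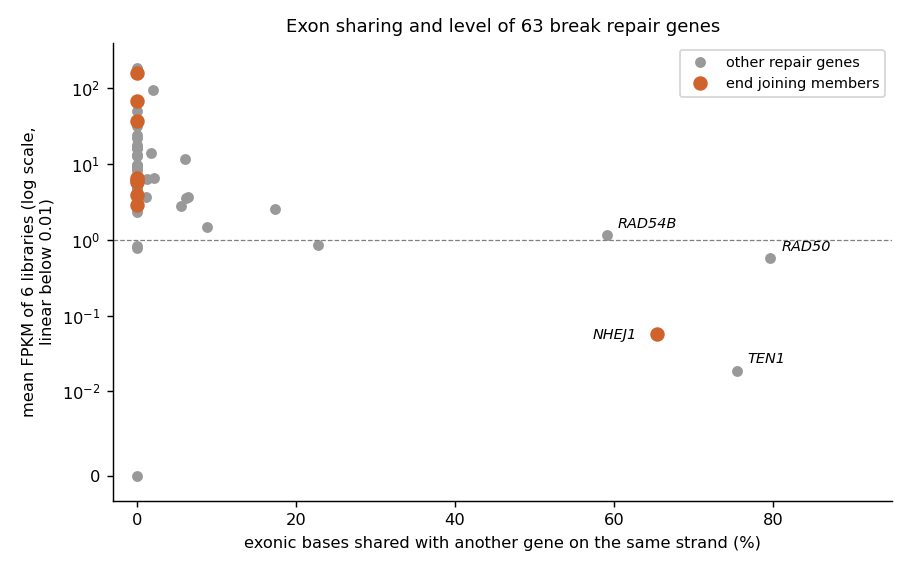
Mean level over the 6 libraries (vertical axis, FPKM on a log scale that turns linear below 0.01) against the share of exonic bases that lie in another gene on the same strand (horizontal axis, percent) for 63 break repair genes. NHEJ1 at 65.4% lies under 0.1 FPKM beside TEN1, while the other 8 members sit at 0% and above 1 FPKM (dashed line).

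TP53BP1 (ENSG00000067369, chr15:43403061-43510728, minus strand) encodes 53BP1, which reads histone marks at breaks and holds back resection. Controls held 3.66, 4.03 and 3.44 FPKM, and irradiated libraries 4.19, 4.20 and 4.10 FPKM. All irradiated libraries were higher, with control 2 close beneath them. The ratio of the means was 1.12, and the log2 difference of 0.14 ± 0.0559 (SE, n = 3 per group) was not called (limma adjusted p = 0.0977). It was called under TPM scaling (0.28, adjusted p = 0.0198), with voom (0.26, adjusted p = 0.00203) and without control 2 (0.18, adjusted p = 0.0370). Of its exonic bases 28.7% overlap TUBGCP4 on the opposite strand, whose level was 1.96 to 2.16 FPKM, and reads from the overlap cannot be told apart if the counting ignored strand.

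RIF1 (ENSG00000080345, chr2:151409883-151508013, plus strand), the effector that 53BP1 recruits, held 5.74, 6.78 and 6.84 FPKM in controls and 6.66, 6.61 and 6.69 FPKM after 10 Gy. Control 1 was low and the other 2 controls lay at or above the irradiated libraries, so the groups overlapped. The log2 difference was 0.042 ± 0.0623 (SE, limma adjusted p = 0.630), and without control 1 it turned to -0.029. The ratio of RIF1 to TP53BP1 was 1.57, 1.68 and 1.99 in controls and 1.59, 1.57 and 1.63 after 10 Gy, a log2 difference of -0.12 that was smaller than the spread of the controls (exact two-sided permutation p = 0.4).

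**Figure D4:**
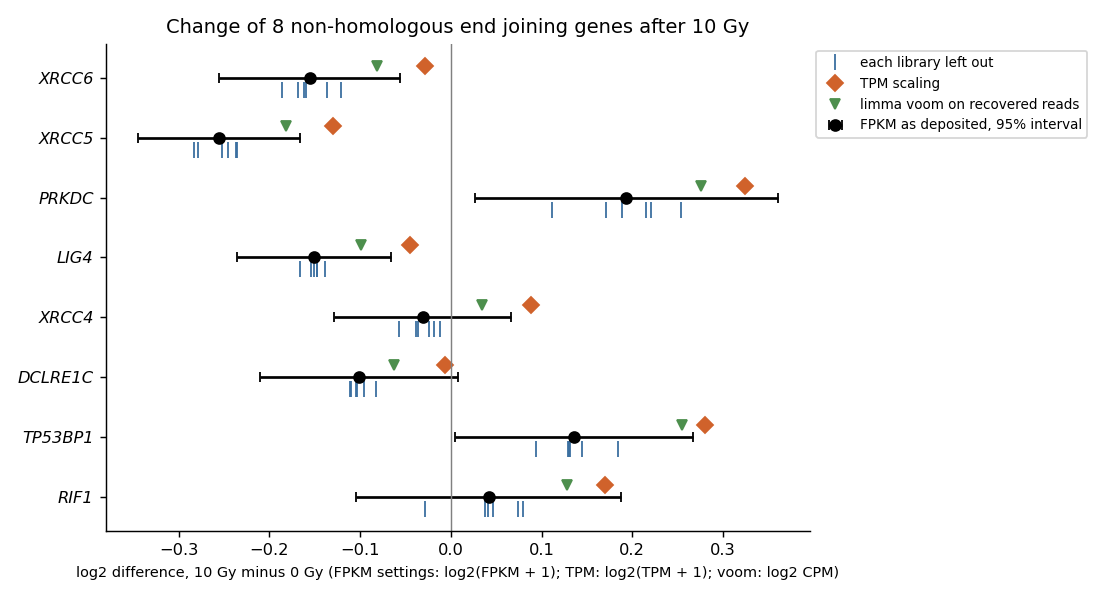
Difference of each of the 8 tested members between 10 and 0 Gy on the log2 scale (horizontal axis), as the estimate from FPKM with its 95% interval (black), with each library left out in turn (ticks), under TPM scaling (diamonds) and with limma voom on recovered reads (triangles). XRCC5, XRCC6, LIG4 and DCLRE1C stay below 0 and PRKDC and TP53BP1 stay above 0 at every point drawn. XRCC4 and RIF1 are drawn on both sides.

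The scaling moved all members together. The deposited FPKM summed to 269611 to 278380 per control library and to 246920 to 254918 per irradiated library, and TPM scaling, which sets these sums equal, raised the median log2 difference of all genes from -0.039 to 0.077. Of all calls, 1443 were higher and 2874 lower in the deposited values, against 3113 higher and 1066 lower under TPM scaling. The depth used in the deposited values was 0.973, 0.983 and 0.991 times the recovered reads in the controls. After 10 Gy it was 1.036, 1.039 and 1.028 times the recovered reads, while voom divided by the recovered reads themselves. Relative to recovered reads, the deposited values thus set irradiated libraries lower against controls. The source of that difference is not given and was not tested. Median-of-ratios factors computed from the deposited values ran only from 0.997 to 1.003 over the 6 libraries. Under median-of-ratios and upper-quartile scaling, XRCC6 (limma adjusted p = 0.0302 and 0.0239) and LIG4 (0.0194 and 0.0150) kept their calls. PRKDC and TP53BP1 stayed uncalled there. Of all calls, 35.1% and 32.2% were higher in these fits, against 33.4% in the deposited values. Taken relative to the median of all genes in the same fit, the members moved little between FPKM, TPM and voom. XRCC5 lay 0.22, 0.21 and 0.21 below that median for FPKM, TPM and voom. XRCC6 lay 0.12, 0.10 and 0.11 below it and LIG4 lay 0.11, 0.12 and 0.13 below it. PRKDC lay 0.23, 0.25 and 0.25 above it, TP53BP1 0.17, 0.20 and 0.23 above it, and XRCC4 0.0077, 0.011 and 0.0072 above it. The order of the members was therefore the same at its ends for FPKM, TPM and voom, with XRCC5 lowest and PRKDC highest.

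The members also differ in length, and in the deposited values the direction of their differences followed it. The 3 with at least 10 kb of exon, PRKDC, TP53BP1 and RIF1, had log2 differences above 0, and the 5 shorter ones tested had differences below 0. This split depended on the fit, since RIF1 was at -0.029 without control 1. XRCC4 was at 0.088 under TPM scaling and at 0.035 with voom. Across the 8 members the log2 difference correlated with log10 length at a Pearson r of 0.71 and a Spearman rho of 0.62, given as a description over genes measured in the same 6 libraries. Other repair genes of at least 10 kb were mixed, with ATM (0.32) and BRCA2 (0.19) called higher, LIG3 (-0.24) called lower and RAD51D (-0.10) not called. The 3 long members were not called in the deposited FPKM. Over all genes the calls leaned the same way as the signs of the members' differences. Of 1227 genes with at least 10 kb, 22.2% were called higher and 9.45% lower, with a median of 0.046, and of 10901 shorter genes, 10.7% were called higher and 25.3% lower, with a median of -0.051. Among the controls alone, long genes were low in control 1, by a median log2 difference of -0.075 from the other controls, against 0.031 for shorter genes, and the 3 long members PRKDC, RIF1 and TP53BP1 differed there by -0.24, -0.21 and -0.019. The part of gene length in the members' differences was not tested.

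**Figure D5:**
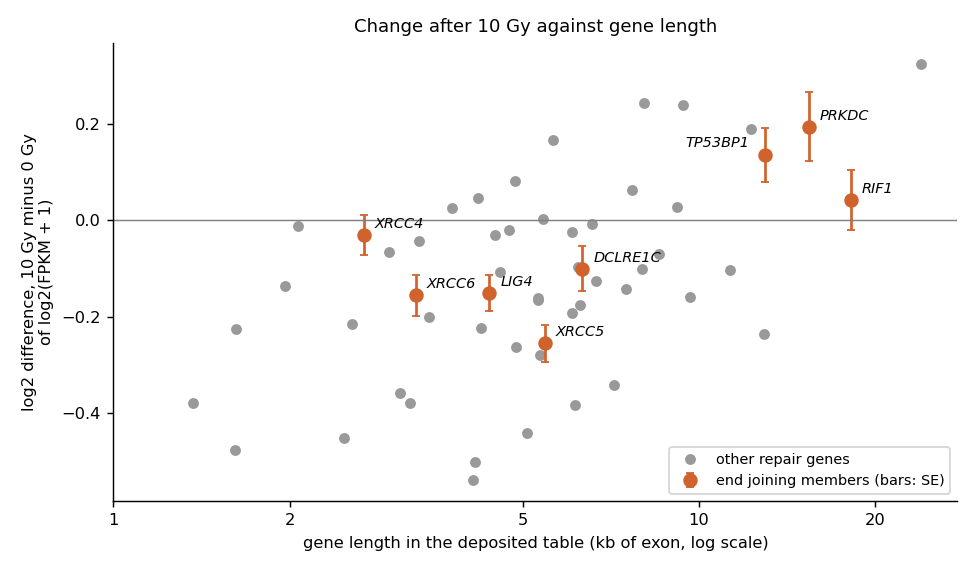
Difference between 10 and 0 Gy on the log2(FPKM + 1) scale (vertical axis) against exonic gene length (horizontal axis, kb, log scale) for the 8 tested members, with bars for the SE, and for the other tested genes of 5 repair lists. RIF1, PRKDC and TP53BP1 lie above 0 at lengths over 10 kb, and the 5 shorter members lie below 0.

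The cell cycle markers moved with dose beside all of these values. In the deposited FPKM, 8 of 10 G2/M markers were called higher and none lower after 10 Gy, against 11.9% and 23.7% of all genes. Their summed level was 698 to 707 FPKM in controls and 863 to 873 FPKM after 10 Gy. All 10 S-phase markers were called lower, against 23.7% of all genes. Their summed level was 569 to 606 FPKM in controls and 445 to 460 FPKM after 10 Gy. Calls of the cell cycle markers under the other scalings are not given. Their part in the changes of the end joining genes was not tested.

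Upstream sequence was searched for short motifs in the 250 bases before the RefSeq start of 7 members for which a window was at hand (RefSeq, GRCh38.p14), on both strands. XRCC5 and PRKDC were not among them. LIG4 has 5 such windows and NHEJ1 and DCLRE1C have 2 each, and for every gene only the window nearest to the start of the gene in the expression table was searched. The motifs were CCAAT, the NF-Y box, GGGCGG, the GC box, CCGGAAG, an ETS site, TTTGAA, the cell cycle element CHR, CGCATGCG, the NRF1 site, and for E2F the sites TTTCGCGC, TTTGGCGC, TTTCCCGC and TTTGGCGG. TTTGGCGG can share letters with a GC box, and no hits in the members' windows overlapped each other. DCLRE1C and TP53BP1 are shown because their groups lay apart in opposite directions and their bases before the gene lie in no exon of another gene. The capitals mark motifs on either strand, and ATTGG is CCAAT and CCGCCC the GC box read on the other strand. The TP53BP1 run stops where the annotated gene begins.
DCLRE1C, chr10:14954433-14954682, minus strand: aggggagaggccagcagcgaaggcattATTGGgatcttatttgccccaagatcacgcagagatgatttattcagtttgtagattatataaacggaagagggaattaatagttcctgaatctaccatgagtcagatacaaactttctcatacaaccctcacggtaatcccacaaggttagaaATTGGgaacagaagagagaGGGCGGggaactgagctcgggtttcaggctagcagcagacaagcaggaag
TP53BP1, chr15:43510729-43510890, minus strand: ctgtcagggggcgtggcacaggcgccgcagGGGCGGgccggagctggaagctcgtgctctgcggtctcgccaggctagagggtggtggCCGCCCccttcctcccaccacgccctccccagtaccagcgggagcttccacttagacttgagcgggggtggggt

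DCLRE1C held 2 CCAAT boxes and 1 GC box, and TP53BP1 held 2 GC boxes in the bases shown, with a CCAAT box and an ETS site further on in its window. In the whole windows, XRCC6 held 3 GC boxes and 1 CCAAT box, LIG4 held 1 ETS site, XRCC4 held 1 ETS site and 1 GC box, NHEJ1 held 2 GC boxes, and RIF1 held a CCAAT box, a GC box and a CHR element. None of these 7 windows held an E2F or NRF1 motif. Among 35116 windows of the same kind, CCAAT was found in 32.0%, the GC box in 42.6%, CHR in 13.3%, the ETS site in 8.52%, the E2F sites in 2.83% and the NRF1 site in 1.73%. These matches describe the letters and do not show binding.

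Of 26 tested genes in 3 lists that act with the core members, 12 fell and 2 rose. That was 46.2% and 7.69%, against 23.7% and 11.9% of all genes. The lists were chosen with earlier results of these data known, so the contrast is a description. For all listed genes, fell and rose mean called in the deposited FPKM. Their calls under the other scalings are not given, and over all genes TPM scaling called 3113 higher and 1066 lower. Of 11 accessory and end processing genes 9 were tested, of which 4 fell and 0 rose. LINP1, a long noncoding RNA that scaffolds Ku80 and DNA-PKcs, fell from 4.43 to 2.74 FPKM (log2 -0.54 ± 0.0534 SE). PAXX, a structural relative of XRCC4 and XLF that binds Ku, fell from 35.7 to 27.2 FPKM (-0.38 ± 0.0615). TDP2, which clears topoisomerase remnants from ends, fell from 18.2 to 14.0 FPKM (-0.36 ± 0.0341). CYREN, a Ku-binding regulator of end joining, fell from 4.74 to 4.12 FPKM (-0.17 ± 0.0486, limma adjusted p = 0.0346). DNTT, the template-free polymerase of lymphocytes, was listed at 0 in all libraries, and the recombinase genes RAG1 and RAG2 had at most 5 reads in any library.

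On the 53BP1 side, 13 of 15 genes were tested, of which 6 fell and 1 rose. The ubiquitin ligase RNF168, whose mark recruits 53BP1, fell from 5.93 to 4.71 FPKM (log2 -0.28 ± 0.0466 SE). STN1 of the fill-in complex CST (-0.23 ± 0.0715, limma adjusted p = 0.0442) and SHLD2 of shieldin (-0.22 ± 0.0486) also fell. MDC1, the adaptor that binds the phosphorylated histone at breaks, rose from 8.88 to 10.7 FPKM (0.24 ± 0.0468). Among 4 tested genes of break sensing, NBN of the MRN complex fell from 18.7 to 14.1 FPKM (-0.38 ± 0.0317) and the histone gene H2AX, listed as H2AFX, from 218 to 156 FPKM (-0.47 ± 0.0443), whereas the kinase gene ATM rose from 3.83 to 5.04 FPKM (0.32 ± 0.0501). Over these 3 lists the median log2 difference was -0.10.

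Genes of the competing routes were counted in the same way. All 6 genes of alternative end joining were called, 5 lower and 1 higher. FEN1 (log2 -0.45 ± 0.0494 SE) and RBBP8, which encodes the resection factor CtIP (-0.44 ± 0.0394), fell, as did PARP1 (-0.34 ± 0.0293), while POLQ, the polymerase of this route, rose from 2.32 to 2.91 FPKM (0.24 ± 0.0674). Of 16 tested genes of homologous recombination 4 fell, namely the nuclease gene EXO1 (-0.50 ± 0.0475), RAD54L (-0.38 ± 0.0455), DNA2 (-0.26 ± 0.0414) and RAD51AP1 (-0.21 ± 0.0403). The 1 that rose was BRCA2, named after its value was seen, from 3.56 to 4.20 FPKM. These were 25.0% lower and 6.25% higher, against 23.7% and 11.9% of all genes, so the share that fell was near that of all genes. The medians of these lists were -0.29 for alternative end joining and -0.11 for homologous recombination, against -0.066 for the core members and -0.039 for all genes.

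The pattern of XRCC5, the member with the smallest p, was compared with that of 10490 other protein-coding genes by Pearson r of log2(FPKM + 1) over the 6 libraries. The most alike were LIF, a cytokine gene of the interleukin 6 family, with r = 0.9992, RHNO1, HJURP, HSPA8 and BCL7B. LIF fell from 31.3 to 25.9 FPKM and HSPA8, which encodes a constitutive chaperone, from 415 to 341 FPKM. With 6 libraries in 2 groups such likeness is common, and 675 genes reached an r of 0.95.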

How the data were processed

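The 6 libraries were grouped by treatment as in the labels. The authors deposited FPKM values of polyA libraries sequenced as paired-end 150 bp reads by Novogene. HISAT2 and GRCh38 are named in the submitters' processing notes, and the counting program is not given in the sources used here. Gene identifiers matched GENCODE 29, and 99.98% of gene lengths equalled the union of its exons. Multiplying FPKM by length and depth gave whole reads (tolerance 0.05) for 100% of values. These recovered reads served for depth and for the voom alternative. They give counting precision only, without molecular identifiers.

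Doses were compared by limma 3.58.1 (R 4.3.3) after adding a pseudocount of 1 to FPKM and taking log2. Variances were moderated by eBayes with a trend on intensity, and p-values adjusted after Benjamini and Hochberg over all genes whose mean reached 1 FPKM. Fold changes on this scale understate those of low genes. Ratios were compared by exact permutation in SciPy 1.17.1. Members and gene lists were chosen with earlier results of these data known, and some items of the lists are not reported here. Named from each list are up to 4 called genes with the largest change and genes at 0 throughout, and for XRCC5 the 5 genes most alike. Repair genes of at least 10 kb are named as well. The 1.3-fold limit follows the study's methods. In simulated data with 12128 genes, 100 were changed at each fold and every gene had the same extra spread between libraries. There 91% of 2-fold and 40% of 1.3-fold changes were recovered, and 7.09% of the genes called were unchanged. In the real data 4317 genes were called, so these shares may differ there. Alternatives changed the pseudocount, filter, scaling, moderation, gene set, replicate block and libraries.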

Additional observations from a re-analysis of the deposited data

How the results depend on the processing

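The number of members called stayed at 2 to 4 under the filters, scalings and moderation settings tried. XRCC5 was called lower in all of them, and XRCC6, LIG4, PRKDC and TP53BP1 were called in some and not in others. With a replicate block it was 1 member, XRCC5, and 3503 genes in all, against 4317 without the block. Replicates of the same number did not deviate together (r = -0.040, -0.035 and -0.10), so the number is not taken as a pairing. With each library left out in turn, 1 to 4 members and 2660 to 3993 genes were called, the lowest without irradiated library 2, and without any 1 irradiated library XRCC5 alone remained among the members. XRCC4 turned to 0.088 under TPM scaling and to 0.035 with voom. RIF1 ran from -0.029 without control 1 to 0.080 with each library left out. The cause was not tested. XRCC6 lost its call in 8 of 18 alternatives and LIG4 in 6. The ratio of XRCC5 to XRCC6 ran from -0.13 to -0.081, that of XRCC4 to LIG4 from 0.094 to 0.18 and that of RIF1 to TP53BP1 from -0.20 to -0.025 (log2) with each library left out. Changes under 1.3-fold are near the limit of 3 libraries per group, and the few reads of NHEJ1 allow no comparison.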
